A study of Mus musculus with 4 samples.

Results

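The perilipins and their partners on the surface of the lipid droplet were compared in the inguinal fat pad of mice, a white depot under the skin. There were 2 libraries with the label FLCNKO, an adipose knockout of the folliculin gene Flcn, and 2 wildtype (WT) libraries. The group holds 8 genes, chosen by name: Plin1, Plin2, Plin3, Plin4, Plin5, Cidec, Fitm2 and Bscl2. All 8 were found by Ensembl identifier among the 13677 genes with a log2 expression value in every library, and all 8 had a mean of at least 8 on that scale. Groups and replicate numbers were read from the library titles. Bulk RNA was extracted from the whole depot, so fewer cells of a type and less RNA per cell cannot be told apart. The Cre driver, the deleted part of Flcn, and the age, sex and strain of the mice are not given in the labels, and no label ties a library to 1 animal. The p-values therefore measure only the spread between these libraries, which may be technical.

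A fat cell stores triglyceride in a droplet bounded by a single layer of phospholipid, and perilipins coat that layer and control the access of lipases to it. Perilipin 1 (Plin1) is the main coat protein of white fat cells. It holds back lipolysis at rest by binding the coactivator of adipose triglyceride lipase, and releases it after phosphorylation by protein kinase A. Perilipin 2 (Plin2) coats droplets in most cell types, perilipin 3 (Plin3) moves from the cytosol onto small new droplets, and perilipin 4 (Plin4) is an amphipathic coat protein abundant in white fat. Perilipin 5 (Plin5) is the form of tissues that oxidize fat, such as brown fat, heart and muscle, where it ties droplets to mitochondria. Cidec, also called Fsp27, joins droplets into the single large droplet of white fat cells. Fitm2 acts in the endoplasmic reticulum when droplets bud, and Bscl2 encodes seipin, which shapes the site where a droplet forms and whose loss in humans causes lipodystrophy.

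Plin5 rose in the FLCNKO-labelled libraries, and Plin2 was the member with the next largest difference, without passing the threshold. Their promoters are shown for that reason, as the RefSeq windows of build GRCm38.p6 that run from 250 bases before the annotated start to 50 bases after it. Plin5 has a second annotated start that is not printed. Capitals mark matches to 3 of 5 searched motifs, on either strand: AGGTCA, the hexamer read by nuclear receptors, and CACGTG and TCACGTG, E-boxes of the kind bound by the MiT/TFE factors that folliculin regulates.
Plin5 promoter, chr17:56117499-56117798, minus strand: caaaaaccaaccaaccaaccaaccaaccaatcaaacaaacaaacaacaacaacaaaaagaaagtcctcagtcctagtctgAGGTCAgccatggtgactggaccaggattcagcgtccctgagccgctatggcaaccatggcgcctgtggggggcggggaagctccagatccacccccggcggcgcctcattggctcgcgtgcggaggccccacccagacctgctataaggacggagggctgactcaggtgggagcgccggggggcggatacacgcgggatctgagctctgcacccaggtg
Plin2 promoter, chr4:86670010-86670309, minus strand: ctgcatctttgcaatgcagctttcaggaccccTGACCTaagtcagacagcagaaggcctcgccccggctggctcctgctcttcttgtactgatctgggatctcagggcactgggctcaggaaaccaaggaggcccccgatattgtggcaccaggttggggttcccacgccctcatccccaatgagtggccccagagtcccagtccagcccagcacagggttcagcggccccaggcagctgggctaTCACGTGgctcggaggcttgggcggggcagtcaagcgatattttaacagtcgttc
The hexamer AGGTCA lay at position 81 of the Plin5 window, and its reverse complement at position 33 of the Plin2 window. The Plin2 window also held TCACGTG at position 246, close to the start, and CACGTG lies within that match. Promoter windows were found for 8 of 8 genes, 12 windows in all. AGGTCA occurred in 4 of these 12 windows, those of Plin2, both of Plin5 and 1 of Bscl2, and in 16.3% of 32817 such windows over the genome. CACGTG occurred in 1 of the 12 windows and in 7.15% of all windows, and TCACGTG in the same window and in 3.76%. The direct repeat of that hexamer with 1 base between (DR1), the type bound by PPAR and RXR (0.04% of windows), and TNAAGGTCA, the type bound by ERR (1.28%), had 0 matches in the 12 windows. A match is a description of the letters and not a binding site. With strings this rare (DR1 in 13 of 32817 windows), 0 matches in 12 windows does not show that such sites are absent.

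Of the 8 genes, 1 was higher in the FLCNKO-labelled libraries and 0 were lower (limma with a trend of variance on mean expression and Benjamini-Hochberg adjustment over all 13677 genes, threshold 0.05). Over all genes 1.59% were called, 0.98% higher and 0.614% lower. At an unadjusted p under 0.05 there were 3 members, against 22.4% of all genes. The groups did not overlap for 3 members, all higher in FLCNKO, against 54.6% of all genes in either direction and 29.2% with FLCNKO higher. The median log2 fold change was 0.02 over the 8 genes and 0.0046 over all genes. Without the trend, or with any 1 library left out, limma called no gene of the whole table, so every call named here was lost under those settings. The targeted gene Flcn had values of 12.35 and 12.12 in FLCNKO and 12.36 and 12.21 in WT and did not separate the groups, so it does not check the labels.

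**Figure D1:**
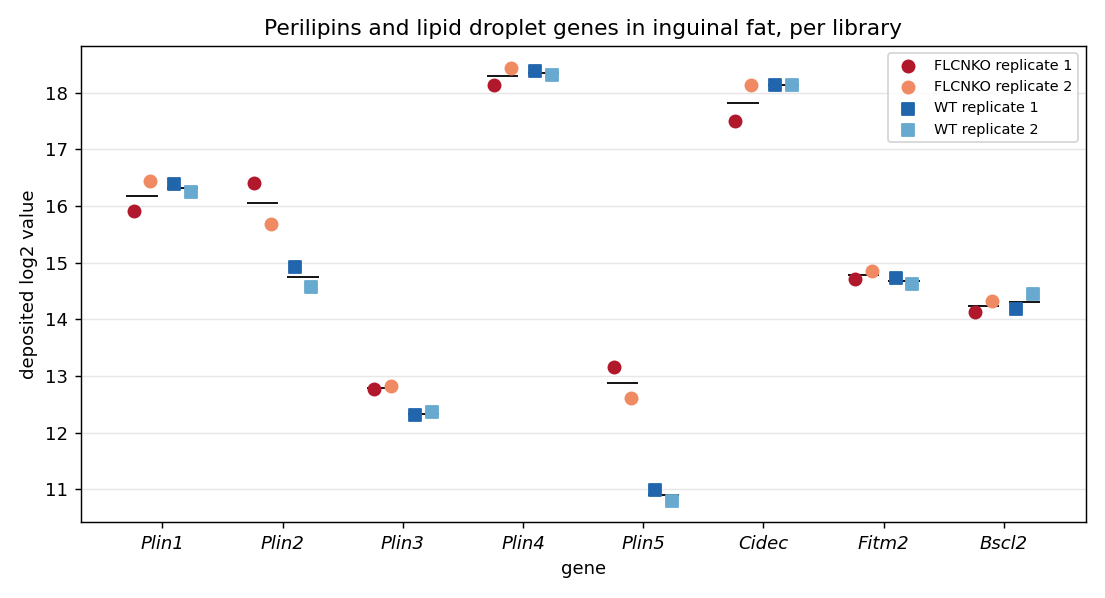
Deposited log2 value of each of the 8 genes (vertical axis) in the 2 FLCNKO-labelled libraries (circles) and the 2 WT libraries (squares), with a black line at each group mean. Plin5, Plin2 and Plin3 are the genes whose groups do not overlap, with FLCNKO above WT in each.

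Plin5 (ENSMUSG00000011305) had log2 values of 13.15 and 12.60 in the FLCNKO-labelled libraries, against 10.98 and 10.80 in WT. Both FLCNKO values lay above both WT values, with a gap of 1.62 between the nearest libraries. The means were 12.88 ± 0.38 in FLCNKO and 10.89 ± 0.13 in WT (SD, n = 2 each). The log2 fold change, 1.99 ± 0.21 (SE), passed with a limma adjusted p of 0.0387, and stood for a 3.96-fold higher level with a 95% interval from 2.74-fold to 5.72-fold. Plin5 stood at place 68 of all genes by p, and 0.681% of its stretches of 31 bases occur in transcripts of other genes. The call was lost when any 1 library was left out, with log2 fold changes between 1.71 and 2.26 and adjusted p-values between 0.0615 and 0.246. Without the mean-variance trend the adjusted p was 0.14.

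Plin2 (ENSMUSG00000028494) had log2 values of 16.40 and 15.68 in FLCNKO, against 14.93 and 14.56 in WT. The groups did not overlap, with a gap of 0.76 between the nearest libraries, and the highest value was that of FLCNKO replicate 1. On the log2 scale FLCNKO minus WT was 1.30 ± 0.27 (SE, n = 2 each; limma adjusted p = 0.0825), a ratio of 2.46 with an interval from 1.51 to 3.99. The difference therefore did not pass over all genes. It was 0.94 without FLCNKO replicate 1 and 1.65 without FLCNKO replicate 2. Of the 31-base stretches of Plin2, 5.16% occur elsewhere, most of them in Gm12551.

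Plin3 (ENSMUSG00000024197) had replicates that lay close together, with 12.77 and 12.82 in FLCNKO and 12.31 and 12.36 in WT. The groups did not overlap, with a smaller gap of 0.40. Its log2 fold change of 0.46 ± 0.10 (SE, n = 2 each) had a limma adjusted p of 0.0899 and did not pass either. Across all 13677 genes, Plin5 lay at percentile 99.1 of the log2 fold change, Plin2 at 98.0 and Plin3 at 85.9.

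The coat proteins that are abundant in white fat cells did not separate the groups. Plin1 (ENSMUSG00000030546) had 15.91 and 16.45 in FLCNKO, against 16.38 and 16.24 in WT. Both WT values lay between the FLCNKO values, and the log2 fold change of -0.14 ± 0.21 (SE; limma adjusted p = 0.75) had an interval from -0.67 to 0.40. Plin4 (ENSMUSG00000002831) had 18.13 and 18.44 in FLCNKO, against 18.39 and 18.31 in WT, and again the FLCNKO libraries enclosed the WT libraries. Its log2 fold change was -0.065 ± 0.18 (limma adjusted p = 0.868), with an interval from -0.53 to 0.40. In each library 15 to 20 genes stood above Plin4, and at such ranks the deposited values are nearly fixed by the rank. That interval is therefore no firm bound on the change of Plin4. Without FLCNKO replicate 1 the log2 fold changes were 0.13 for Plin1 and 0.090 for Plin4, so their sign turns with that library.

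Cidec (ENSMUSG00000030278) had 17.51 and 18.13 in FLCNKO, against 18.13 and 18.13 in WT. It shared 1 value in 3 libraries because it had 20 genes above it in each of them, and the deposited values give each rank at the top of the table nearly the same value. The SD of 0 in WT thus does not measure its spread. In FLCNKO replicate 1, 37 genes stood above Cidec, and there Plin4 took the place below 20 genes and with it the value 18.13. The log2 fold change of Cidec was -0.31 ± 0.24 (SE, n = 2 each; limma adjusted p = 0.513), 0.00 without FLCNKO replicate 1 and -0.62 without FLCNKO replicate 2, so 1 library sets it.

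The genes of droplet formation overlapped between the groups. Fitm2 (ENSMUSG00000048486) had 14.71 and 14.86 in FLCNKO, against 14.72 and 14.63 in WT, a log2 fold change of 0.11 ± 0.12 (SE; limma adjusted p = 0.638). Bscl2 (ENSMUSG00000071657) had 14.13 and 14.32 in FLCNKO, against 14.17 and 14.44 in WT, a log2 fold change of -0.081 ± 0.14 (limma adjusted p = 0.786). The intervals ran from -0.19 to 0.40 for Fitm2 and from -0.44 to 0.28 for Bscl2. Both genes overlap others. Bscl2 overlaps Gng3 on the opposite strand by 1728 bases and AC129217.1 on the same strand by 3671 bases, and 12.6% of its 31-base stretches occur in other genes. Gng3 itself was low, at 5.73 and 6.13 in FLCNKO and 5.94 and 5.36 in WT. Fitm2 overlaps the antisense gene 2310001K24Rik by 673 bases. No values were found under the names AC129217.1 and 2310001K24Rik, so the levels of these overlapping genes could not be checked. Plin4 overlaps Hdgfl2 by 17 bases, and the strand setting of the counting is not given in the sources used here.

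Plin4 and Plin5 are neighbours on the same strand of chromosome 17, 1797 bases apart in the GENCODE annotation, and Plin3 lies on the same chromosome. The log2 value of Plin5 minus that of Plin4 was -4.98 and -5.84 in FLCNKO, against -7.40 and -7.51 in WT. The difference between these 2 adjacent genes was thus smaller by 2.05 in FLCNKO, and the groups did not overlap. Plin5 minus Plin2 was -3.25 and -3.08 in FLCNKO, against -3.95 and -3.77 in WT, a shift of 0.69.

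Setting each gene against Plin1 in the same library cancels only a constant log2 shift of that library. It does not undo the step that made the distributions almost equal between libraries. It also carries the spread of Plin1 into each difference. Plin5 minus Plin1 was -2.76 and -3.84 in FLCNKO, against -5.40 and -5.44 in WT, a shift of 2.12. Plin2 minus Plin1 was 0.50 and -0.76 in FLCNKO, against -1.45 and -1.68 in WT, a shift of 1.43. Plin3 minus Plin1 shifted by 0.59, Fitm2 by 0.24, Cidec by -0.18, Plin4 by 0.071 and Bscl2 by 0.055. The groups separated for Plin5, Plin2, Plin3, Cidec and Fitm2 and overlapped for Plin4 and Bscl2. Cidec and Fitm2 overlapped by their own values and separated only once Plin1, itself spread within FLCNKO, was subtracted. How often other genes of the table separate when set against Plin1 was not counted, so this count has no background. In these 7 comparisons an exact two-sided permutation test of 2 against 2 libraries cannot go below 0.333, which is the value the 5 separated genes reached (0.467 after Benjamini-Hochberg adjustment over the 7). Without FLCNKO replicate 1 the shift of Plin2 was 0.80 and that of Plin5 was 1.58.

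**Figure D2:**
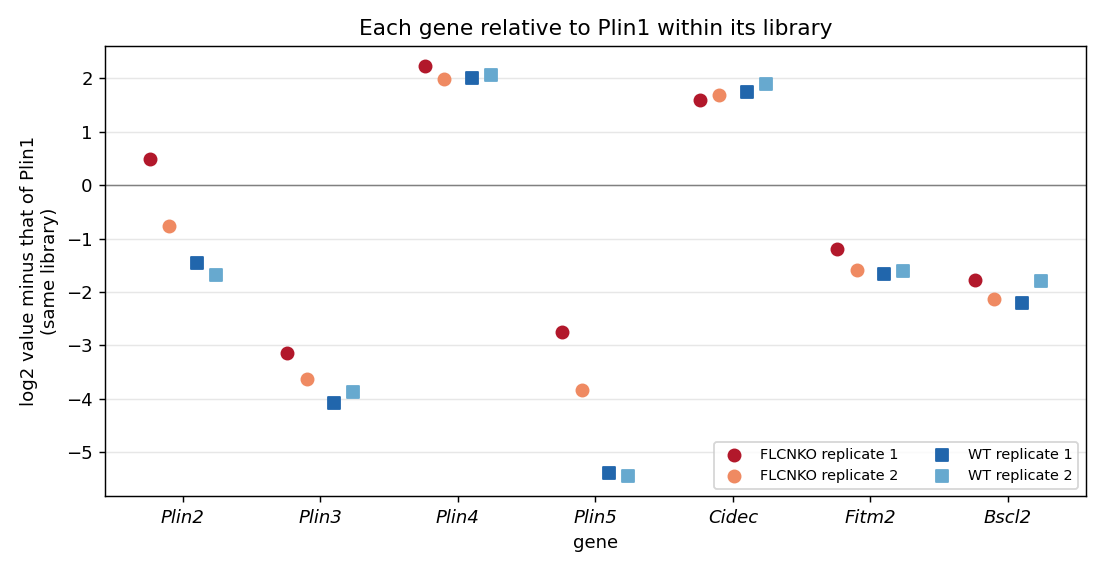
Log2 value of each gene minus that of Plin1 in the same library (vertical axis) for the 2 FLCNKO-labelled libraries (circles) and the 2 WT libraries (squares). Plin5 lies at -2.76 and -3.84 in FLCNKO and at -5.40 and -5.44 in WT, whereas Plin4 lies between 1.99 and 2.22 above Plin1 in all 4 libraries.

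Levels of different genes were compared per kilobase of annotated exon, on the assumption that the deposited values had not been divided by gene length. On that log2 per kilobase scale the order in FLCNKO was Cidec (mean 16.93), Plin4 (15.75), Plin2 (14.23), Plin1 (13.96), Fitm2 (12.79), Plin5 (11.81), Bscl2 (11.67) and Plin3 (10.87). In WT it was Cidec (17.24), Plin4 (15.82), Plin1 (14.09), Plin2 (12.93), Fitm2 (12.69), Bscl2 (11.75), Plin3 (10.41) and Plin5 (9.83). Plin5 thus stood at place 6 of 8 in FLCNKO and at place 8 in WT. Neighbours in the order whose libraries overlapped were Plin2 and Plin1 in FLCNKO, and Plin5 and Bscl2 in FLCNKO. Plin2 lay above Plin1 in FLCNKO replicate 1, at 14.59 against 13.69, and below it in the other 3 libraries. In WT the lower Plin2 library (12.75) stood barely above the higher Fitm2 library (12.73). These neighbours thus did not overlap, by a small margin, and their difference was not tested. With the length of the longest protein-coding transcript in place of the exon union, Bscl2 moved above Fitm2 in both groups and Plin5 stood at place 7 in FLCNKO, still at place 8 in WT. Among 13592 genes with a length, Plin5 stood at percentile 94.3 and 91.8 in FLCNKO and at 75.2 and 72.4 in WT.

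The make-up of the perilipin transcripts was expressed as each gene's share of the summed linear level per kilobase of Plin1 to Plin5. Plin4 held 53.0% and 61.2% in FLCNKO, against 66.7% and 68.6% in WT. Plin1 held 14.1% and 19.1% in FLCNKO, against 20.7% and 20.3% in WT. Plin2 held 26.3% and 14.9% in FLCNKO, against 9.99% and 8.39% in WT. Plin5 remained a small part, with 4.64% and 2.96% in FLCNKO and 1.09% and 1.04% in WT. Plin3 held 1.97% and 1.89% in FLCNKO, against 1.51% and 1.69% in WT. The groups did not overlap for any of these 5 shares, which sum to the whole and so cannot move independently. With the longest transcript as the length, the share of Plin2 was 37.0% and 22.1% in FLCNKO and 15.2% and 12.9% in WT.

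**Figure D3:**
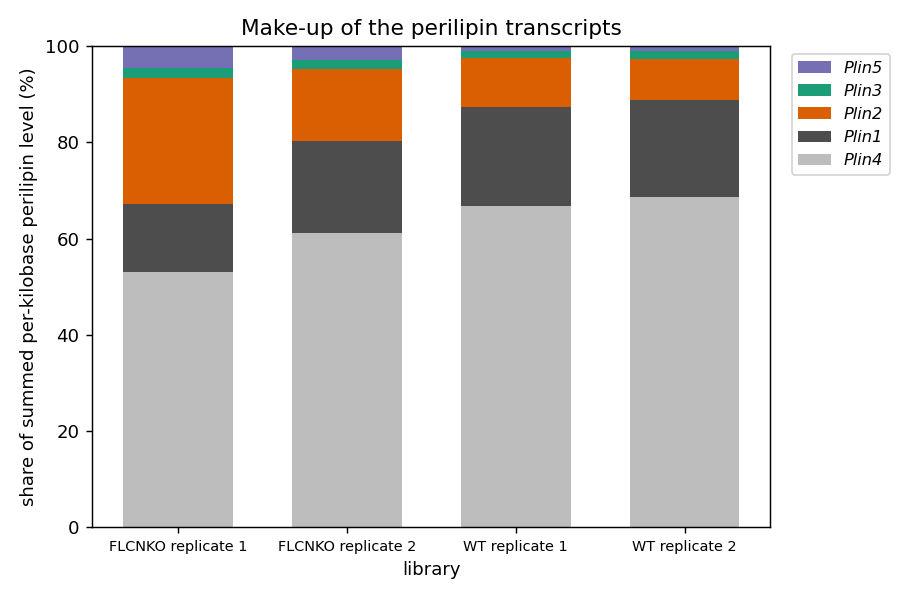
Share of each perilipin in the summed per-kilobase level of Plin1 to Plin5 (vertical axis, percent) in each library. The Plin2 and Plin5 segments are widest in FLCNKO replicate 1, at 26.3% and 4.64%, and narrowest in WT replicate 2, at 8.39% and 1.04%.

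Other proteins of the droplet surface and its contact with the endoplasmic reticulum were followed, with S100b, in a list of 18 genes, all measured. Of these, 2 rose, Acsl3 and S100b, and 0 fell, against 0.98% and 0.614% of all genes. Acsl3, a fatty acid ligase of nascent droplets, had 11.73 and 11.35 in FLCNKO, against 10.17 and 10.35 in WT, and rose by 1.28 ± 0.18 on the log2 scale (SE, n = 2 each; limma adjusted p = 0.0478). S100b, not itself a coat gene and listed as a partner of calsyntenin 3, rose by 3.07 ± 0.16 (limma adjusted p = 0.0336). The 2 relatives of Cidec had large differences that did not pass. Cidea, the droplet fusion gene of brown and beige fat, had 16.64 and 14.97 in FLCNKO, against 13.13 and 12.31 in WT (limma adjusted p = 0.0711). Cideb, known from liver, was low, at 7.42 and 7.51 in FLCNKO and 4.42 and 4.89 in WT (limma adjusted p = 0.0714). Pcyt1a, the phosphatidylcholine enzyme that settles on growing droplets, had a log2 fold change of 0.62 ± 0.11 (limma adjusted p = 0.0668). Of the 18 genes, 9 had groups that did not overlap with FLCNKO higher and 2 with FLCNKO lower, against 29.2% and 25.4% of all genes, and the median log2 fold change was 0.23.

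The lipases that the perilipins guard were listed together with their regulators, 12 genes in all. Limma called 0 of that list (3 higher and 1 lower at an unadjusted p under 0.05, against 12.1% and 10.3% of all genes). Of the 12, 6 lay higher in FLCNKO without overlap, 1 lay lower and 5 overlapped. Over all genes 29.2% lay higher and 25.4% lower without overlap. Pnpla2, the adipose triglyceride lipase, had 17.48 and 17.76 in FLCNKO, against 17.58 and 17.72 in WT. Lipe, the hormone-sensitive lipase, had 17.01 and 17.55 in FLCNKO, against 17.34 and 17.27 in WT, and Abhd5, the lipase coactivator that Plin1 and Plin5 bind, had 14.41 and 14.49 in FLCNKO and 14.28 and 14.47 in WT. These 3 genes, named for their contact with the perilipins after their values were seen, overlapped between the groups. The smallest p-values of the list belonged to the adrenergic receptor gene Adrb3, with a log2 fold change of 0.63 ± 0.11, the monoglyceride lipase gene Mgll with 0.74 ± 0.16 and the carboxylesterase gene Ces1f with -0.51 ± 0.12 (limma adjusted p = 0.064, 0.0825 and 0.0955).

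In triglyceride assembly limma called 0 of 12 genes (5 higher and 1 lower at an unadjusted p under 0.05, against 12.1% and 10.3% of all genes), and the median log2 fold change was 0.31. Agpat2, an acyltransferase whose loss causes lipodystrophy in humans as that of seipin does, had 16.77 and 16.14 in FLCNKO, against 15.05 and 15.21 in WT (log2 fold change 1.33 ± 0.23, SE; limma adjusted p = 0.0625). Agpat3 had a log2 fold change of 0.54 ± 0.10 and Gpam, the first acyltransferase of the pathway, of 0.51 ± 0.17 (limma adjusted p = 0.0711 and 0.167). Of the 5 measured genes of the caveolae, the membrane pits of the fat cell surface, limma called 0 (0 higher and 2 lower at an unadjusted p under 0.05, against 12.1% and 10.3% of all genes). The median log2 fold change of the caveola genes was -0.46. For 3 of the 5, Cav2, Cavin1 and Cavin3, FLCNKO lay below WT with no overlap, against 25.4% of all genes.

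**Figure D4:**
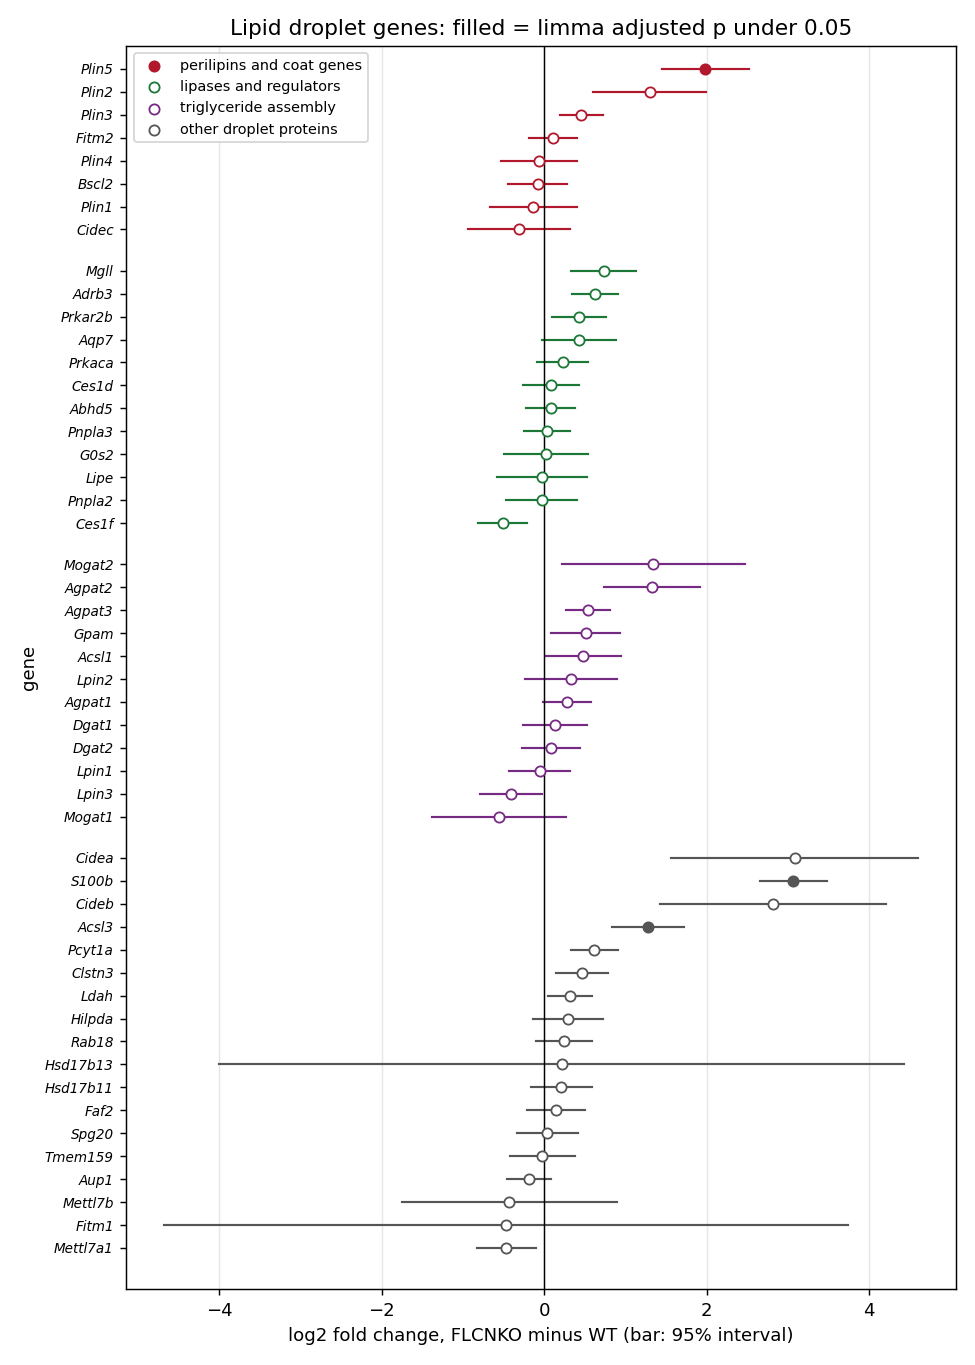
Log2 fold change, FLCNKO minus WT (horizontal axis), with its 95% interval from limma for the 8 genes and for 3 lists of droplet genes. Filled points passed a limma adjusted p of 0.05 and are Plin5, Acsl3 and S100b, which is not itself a coat gene. Every interval of the list of lipases and regulators except those of Mgll, Adrb3, Prkar2b and Ces1f includes 0.

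Among 11 regulators of the PPAR pathway, to which several perilipin genes are known to respond, 3 rose and 0 fell, against 0.98% and 0.614% of all genes. Ppara, the receptor of fat oxidation, had 12.97 and 12.76 in FLCNKO, against 9.65 and 9.88 in WT, and rose by 3.10 ± 0.15 on the log2 scale (SE, n = 2 each; limma adjusted p = 0.0336). The coactivator genes Ppargc1b and Ppargc1a rose by 1.77 and 1.12. Pparg, the receptor of fat cell formation, overlapped between the groups, at 13.90 and 14.14 in FLCNKO and 13.78 and 14.35 in WT. Of the 11, 7 lay higher in FLCNKO without overlap and 2 lower, Rxra and Ppard, against 29.2% and 25.4% of all genes. Rxra had 13.62 and 13.61 in FLCNKO, against 14.14 and 14.18 in WT (limma adjusted p = 0.0654). The 3 genes of the table whose values over the 4 libraries, centred on their own means, lay nearest to those of Plin5 were Ddo, Ppfibp2 and Gyg. Their Euclidean distances from Plin5 were 0.136, 0.169 and 0.190 on the log2 scale, over 4 libraries. Gyg, which encodes the glycogen primer glycogenin, had 14.68 and 14.29 in FLCNKO, against 12.61 and 12.59 in WT.

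Several cell types of the depot express perilipins, and the summed linear levels of their markers, on a log2 scale, moved as follows. Of all genes 0.98% rose and 0.614% fell, which is the background for the counts that follow. Of 15 thermogenic markers 5 rose and 0 fell, with Cox8b up by 3.24, and the sum was 17.86 and 16.58 in FLCNKO and 14.63 and 14.09 in WT. Ppargc1a, also in the list of PPAR regulators, was among the 5. Cidea, also in the list of other droplet proteins, and Cox8b were the most abundant thermogenic markers. They made up most of each thermogenic sum, which therefore says little about the other markers. At an unadjusted p under 0.05 limma had 12 higher and 0 lower, against 12.1% and 10.3% of all genes. The groups overlapped for Ucp1, Dio2 and Prdm16. Ucp1 had 13.79 and 10.06 in FLCNKO, against 10.595 and 7.42 in WT. White adipocyte markers were called in neither direction (0 of 14 by limma; 2 higher and 4 lower at an unadjusted p under 0.05, against 12.1% and 10.3% of all genes), with sums of 22.35 and 22.50 in FLCNKO and 22.56 and 22.50 in WT. Their most abundant genes, Car3 and Fabp4, overlapped between the groups, and Cfd, the smallest p of the list, had a log2 fold change of -1.13 (limma adjusted p = 0.0691). As for Cidec, the deposited values give each top rank nearly the same value. The value 20.57 was that of Car3 in both WT libraries and FLCNKO replicate 2, and of Fabp4 in FLCNKO replicate 1. Such genes dominate the white adipocyte sums, so these sums say little about white adipocyte content.

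Skeletal muscle, in which Plin5 is also known, had 18 of 19 markers measured, 0 called by limma (0 at an unadjusted p under 0.05), with sums of 16.52 and 14.01 in FLCNKO and 17.56 and 14.73 in WT. FLCNKO replicate 2 had the lowest muscle sum and a median marker value of 5.42, with Ttn at 5.85, Myh1 at 5.42 and Mb at 5.42. The lowest value of any muscle marker was 2.37, and Acta1 and Myl1 stayed at 13.32 and 11.79 in that library. Macrophages, which use Plin2, had 20 of 20 markers measured, of which 0 rose and 2 fell, Itgam by 1.15 and C1qc by 1.01 as log2 differences. At an unadjusted p under 0.05 limma had 0 of them higher and 10 lower, against 12.1% and 10.3% of all genes. The macrophage sum was 17.27 and 16.96 in FLCNKO, against 18.06 and 17.82 in WT. Of 14 fibroblast markers 3 fell, Fn1, Col1a2 and Col1a1, with sums of 19.34 and 19.24 in FLCNKO and 20.38 and 20.22 in WT. Limma had 0 of the 14 higher and 13 lower at an unadjusted p under 0.05, against 12.1% and 10.3% of all genes. Of 14 epithelial markers 5 were measured and Trp63 fell, with sums of 9.12 and 9.34 in FLCNKO and 10.60 and 11.34 in WT. Trp63 alone, at 10.07 and 10.98, made up most of the sums in WT. Of the 5, 3 lay lower in FLCNKO without overlap, against 25.4% of all genes, and Krt8 and Krt18 overlapped. The part of the thermogenic, white adipocyte, muscle, macrophage, fibroblast and epithelial markers in the perilipin values was not tested.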

How the data were processed

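RNA from inguinal fat was extracted with Trizol and columns, per the labels' protocols. Per the submitters' processing notes, the tools were STAR and limma and the build mm9, with no version stated. The deposited values are log2 expression values whose distribution the authors had made almost equal between the 4 libraries (medians 10.76), which hides any shift of the whole transcriptome. They are not counts, and with the depth unknown no counting error can be stated. Symbols were matched by Ensembl identifier for 13592 of 13677 genes. Annotation and transcripts were GENCODE M21, of another build than mm9, and no coordinates of the files are given.

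The test was limma 3.58.1 (R 4.3.3) with group as the only term, a variance trend on mean expression (2 residual and 3.09 prior degrees of freedom), two-sided tests and Benjamini-Hochberg adjustment over all genes at 0.05. A log2 fold change is FLCNKO minus WT. The fit was tested on simulated data. The members and lists were chosen with earlier results of these data known, so no list is independent evidence, and p-values were not adjusted over a list. Named genes were drawn from the members, Flcn, up to 3 genes per list with the smallest p, the 2 most abundant genes of each marker list, overlapping neighbours and the 3 nearest profiles of a called member. Not all of them are printed. Exceptions are stated or are counts of 5 or fewer named in full. Alternatives were filters on a mean of 8 or 5, repeated quantile normalization, median centring, no trend, robust estimation, a replicate block and leaving out each library. Figures were drawn with matplotlib 3.10.9.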

Additional observations from a re-analysis of the deposited data

How the results depend on the processing

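Over all genes, limma called 218 genes, 344 with robust estimation, 842 with the replicate block, 0 without the trend (2702 at an unadjusted p under 0.05) and 0 in each fit with 1 library left out (1395 to 3455 unadjusted). Members called were 1, 2 with the replicate block, 0 without the trend (3 unadjusted) and 0 in each fit with 1 library left out (2 to 5 unadjusted). With a filter on a mean of 8 or 5, repeated quantile normalization, median centring and robust estimation, Plin5 stayed called (adjusted p from 0.029 to 0.0401). The replicate block called Plin2 beside Plin5 (adjusted p = 0.027 and 0.0201). With 2 libraries a group both pairs have by construction the same correlation of deviations, 0.363, though its size is not fixed in that way. No label says what a number marks, so it is not known whether the numbers pair the libraries. Where a group is left with 1 library, that library is assumed to vary like the other group. With 1 library left out, the log2 fold change ran from -0.41 to 0.13 for Plin1, from -0.22 to 0.090 for Plin4 and from -0.21 to 0.053 for Bscl2. It was positive without FLCNKO replicate 1 for all 3 (0.0099 for Bscl2) and without WT replicate 2 for Bscl2. Against the mean of the other 7 members in place of Plin1, which holds Plin2 and Plin5, the shift was 0.058 for Plin3, -0.54 for Plin4, -0.82 for Cidec, -0.34 for Fitm2 and -0.56 for Bscl2. The cause was not tested for any of these. The length per gene was an alternative chosen after seeing the data. The depth is unknown, and with 2 libraries a group a p that misses the threshold does not show that a gene did not differ.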
